A study of Mus musculus with 20 samples.

Results

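This account covers 37 genes of fatty acid oxidation and ketone body metabolism in mouse liver, of the 54532 gene entries measured. They were taken from the deposited table by gene symbol. All 37 were found, and all 37 passed the filter on low values. By their known roles 17 serve the mitochondrial route, 11 the peroxisomal route and 2 the omega route. A further 2 act on ketone bodies, and 3 are other targets of the nuclear receptor PPARalpha. The last 2, Acsl1 and Acot1, make and cleave acyl-CoA and were counted outside these routes. The study sequenced polyadenylated RNA from whole liver of STING knockout mice whose bile duct had been ligated for 7 days (BDL_KO), of ligated wild-type mice (BDL_Wt), of knockout mice after sham surgery (Sham_KO) and of sham-operated wild-type mice (Sham_Wt). Each of these 4 groups held 5 libraries. The age, strain, line and deleted exons of these mice are not given in the sources used here, and nothing says that the libraries of a group came from separate mice, so p-values measure the spread between libraries. Mice deficient in Abcb4, which the design text also names, were not analysed here.

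Hepatocytes burn fatty acids by several routes. Long chains are activated to acyl-CoA and carried into the mitochondrion as carnitine esters, where the beta-oxidation spiral shortens them and passes electrons through flavoproteins to the respiratory chain. Peroxisomes shorten very long and branched chains, and omega-hydroxylases of the Cyp4a family oxidise the far end of the chain in the endoplasmic reticulum. The acetyl-CoA that is released can be turned into ketone bodies, the fuel that liver exports in fasting. PPARalpha, a receptor for fatty acids, drives many of these genes, most strongly those of the peroxisomal and omega routes in mice.

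The libraries held 14.9 to 20.9 M fragments, recovered from the deposited FPKM values (fragments per kilobase of gene, divided by a library size). The library size behind the values differed from these fragments. It was 13.6 M against 18.3 M in BDL_KO_2248 and 15.0 M against 18.1 M in BDL_KO_2359. It was 18.6 M against 16.1 M in BDL_KO_2365 and 21.4 M against 18.6 M in BDL_Wt_2236. What set this library size was not tested. Y-linked transcripts marked 10 libraries, 2 or 3 in each group, and Xist marked the other 10. Tmem173, which codes for STING, had 0.840, 1.38, 0.638, 2.57 and 1.66 FPKM in BDL_KO, against 2.89, 2.60, 4.60, 3.91 and 4.20 FPKM in BDL_Wt. It had 1.06, 0.617, 0.588, 0.718 and 0.730 FPKM in Sham_KO, against 1.87, 0.843, 1.79, 1.69 and 2.34 FPKM in Sham_Wt. The knockout libraries were lower after ligation and, with 1 overlap, after sham surgery (log2 difference -1.17, exact two-sided permutation p = 0.00794, and -0.80, exact two-sided permutation p = 0.0159, n = 5 each). BDL_KO_2359 and BDL_KO_2248 stood apart from their group. Their summed cholangiocyte markers were 88.6 and 68.7 FPKM, against 339.8 to 568 FPKM in the other 3 BDL_KO libraries, 230.5 to 619 FPKM in BDL_Wt and 26.1 to 37.2 FPKM over both sham groups. Results that these 2 libraries moved are also given without them.

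Ligation lowered most of these genes in both genotypes. In knockout livers 30 of the 37 were lower after ligation and 0 higher, where 12.9% of all 14059 tested genes were lower and 12.3% higher. In wild-type livers 27 of 37 were lower and 0 higher, where 17.5% of all genes were lower and 18.1% higher. The calls rest on limma's moderated test of log2(FPKM + 0.5), with Benjamini-Hochberg adjusted p under 0.05 over all genes. The median change of the members was -0.91 in knockout and -0.84 in wild-type livers on the log2 scale, beside medians over all genes of -0.01 and -0.02. The fall was at least 2-fold for 16 members in knockout and 13 in wild-type livers.

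All 27 members lower in wild-type livers were also lower in knockout livers, so 90% of the knockout calls were shared with wild type. Acadm, Cpt1a and Vnn1 were called in knockout livers alone, but no difference of response between genotypes passed the test. Acaa1a, Acot2, Acot3, Acot4, Fgf21, Pdk4 and Scp2 were called in neither genotype. Without BDL_KO_2359 and BDL_KO_2248, 30 members were again lower in knockout livers, where 18.2% of all genes were lower.

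**Figure D1:**
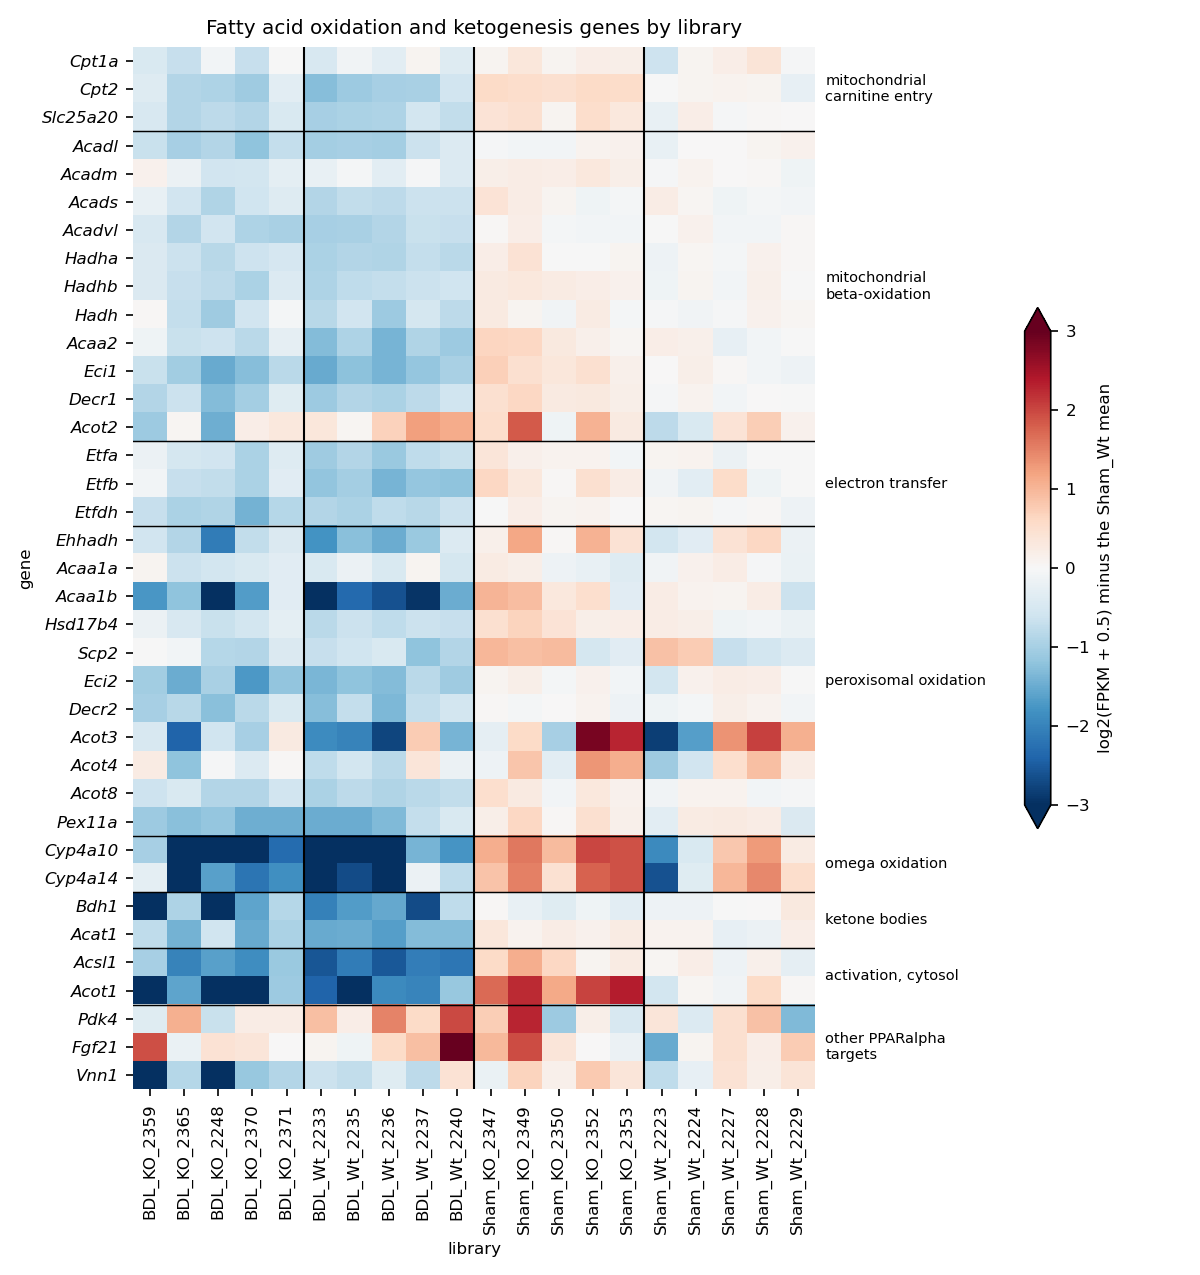
Each cell is log2(FPKM + 0.5) of 1 gene in 1 library minus the Sham_Wt mean of that gene; rows are the 37 genes by role and columns the 20 libraries by group, with colours that stop at -3 and 3. The ligated libraries on the left are below the Sham_Wt mean in most rows, and the rows of Acot2, Acot3, Acot4, Pdk4 and Fgf21 are mixed.

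**Figure D2:**
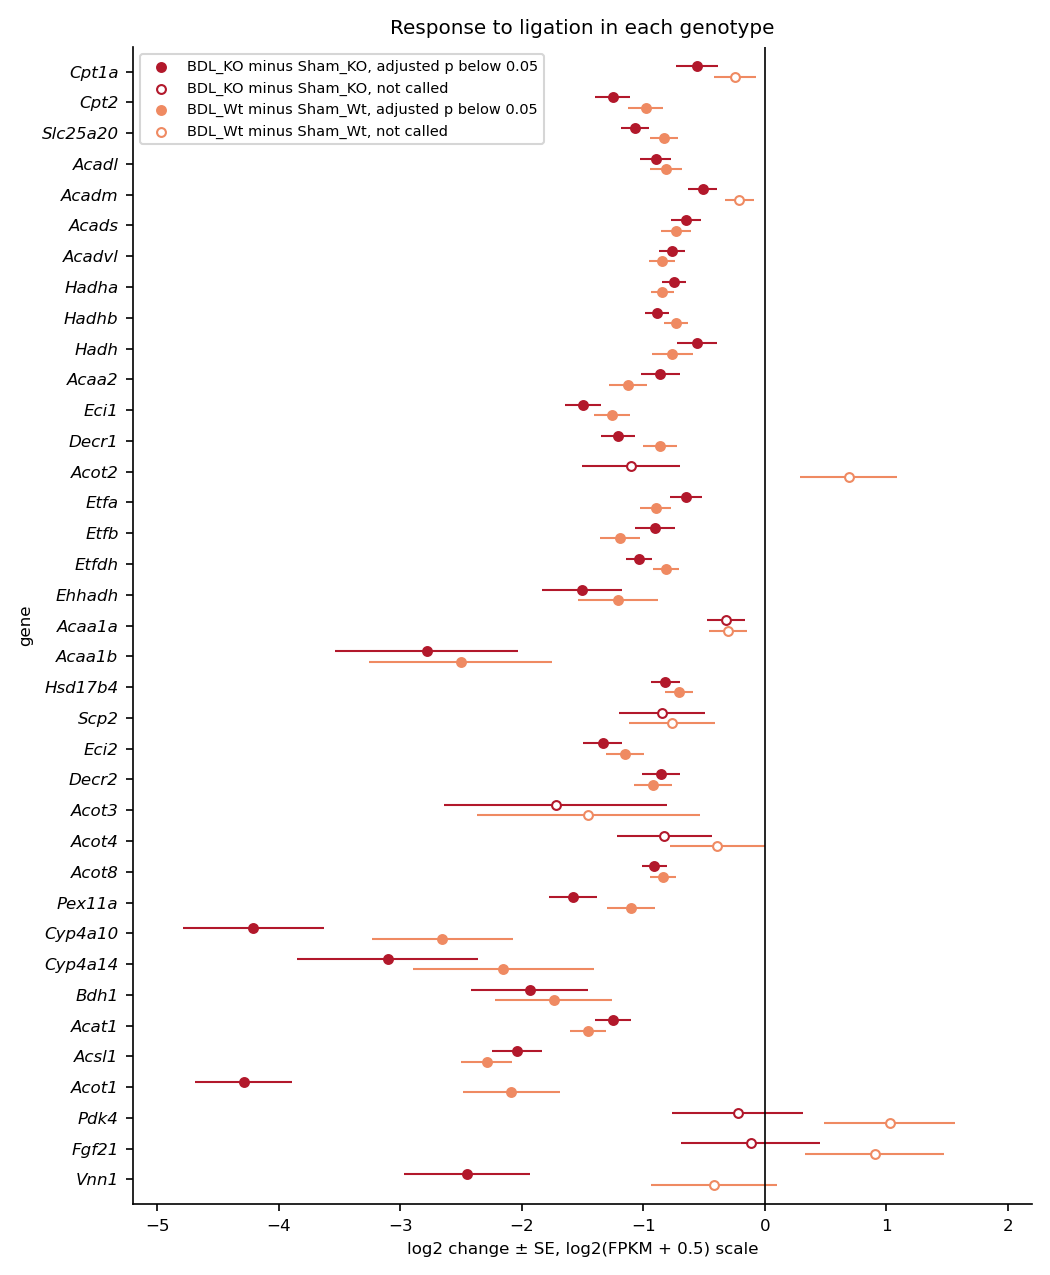
Points are log2 changes with ligation in knockout (dark red) and wild-type (orange) livers and bars are standard errors; filled points have an adjusted p under 0.05. All 37 knockout points and 34 of 37 wild-type points lie below 0.

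Most genes of the mitochondrial route fell with ligation. Of its 17 genes 16 were lower in knockout livers, with a median change of -0.89, and 14 in wild-type livers, with a median of -0.83. Cpt1a, which makes the carnitine esters and is the gate of the route, was the least affected of the carnitine genes. It had 64.4, 54.9, 83.6, 55.0 and 87.5 FPKM in BDL_KO, against 94.1, 112, 93.5, 101 and 101 FPKM in Sham_KO. It had 63.3, 82.2, 70.6, 94.3 and 67.5 FPKM in BDL_Wt, against 57.3, 93.4, 101, 116 and 86.9 FPKM in Sham_Wt. All BDL_KO libraries were below all Sham_KO libraries (-0.56 ± 0.17, limma adjusted p = 0.0239), while the wild-type groups overlapped (-0.24 ± 0.17, adjusted p = 0.297). The knockout call was lost without any 1 of 3 libraries.

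Cpt2, which returns the acyl group to CoA inside the mitochondrion, averaged 43.4 ± 10.7 FPKM in BDL_KO and 102 ± 2.53 FPKM in Sham_KO (SD, n = 5 each). It averaged 35.6 ± 6.77 FPKM in BDL_Wt and 70.1 ± 6.98 FPKM in Sham_Wt. Its changes of -1.25 ± 0.14 and -0.98 ± 0.14 passed the test in both genotypes, with no overlap between ligated and sham libraries. Slc25a20, the carnitine-acylcarnitine carrier of the inner membrane, changed by -1.07 ± 0.12 in knockout and -0.83 ± 0.12 in wild-type livers.

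The acyl-CoA dehydrogenases open each turn of the spiral, and each enzyme prefers chains of another length. Acadm, which takes medium chains, had 89.9, 72.8, 54.8, 55.2 and 66.7 FPKM in BDL_KO, against 92.8, 94.6, 93.8, 103 and 92.5 FPKM in Sham_KO. It had 70.2, 78.8, 65.0, 79.9 and 61.2 FPKM in BDL_Wt, against 80.2, 88.6, 81.9, 83.7 and 74.7 FPKM in Sham_Wt. The knockout groups did not overlap (-0.51 ± 0.12, limma adjusted p = 0.00477), and the wild-type groups did (-0.21 ± 0.12, adjusted p = 0.19). The knockout call of Acadm was lost in 5 of 34 alternative settings, and its wild-type change was called in 1. The dehydrogenases for short (Acads), long (Acadl) and very long chains (Acadvl) fell in both genotypes, by 0.64 to 0.90 in knockout and 0.73 to 0.84 in wild-type livers on the log2 scale.

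Hadha and Hadhb code for the alpha and beta subunits of the trifunctional protein, which carries out the later steps on long chains. Hadha averaged 28.5 ± 2.98 FPKM in BDL_KO and 48.3 ± 6.83 FPKM in Sham_KO, and 24.1 ± 1.59 FPKM in BDL_Wt and 43.6 ± 3.11 FPKM in Sham_Wt (SD, n = 5 each). Their changes were close, at -0.75 ± 0.10 and -0.89 ± 0.10 in knockout livers and -0.84 ± 0.10 and -0.73 ± 0.10 in wild-type livers. Of the 75-base windows of the Hadhb transcript 57.2% also occur in other genes, most in Gm13910, so the level of Hadhb is uncertain. None of those of Hadha do. The genes lie back to back on chromosome 5, Hadha on the minus and Hadhb on the plus strand, and in the GENCODE M21 annotation only 85 bases separate them (GRCm38, chr5:30155163-30155247). RefSeq places the start sites farther apart, with 272 bases between Hadha at 30154980 and Hadhb at 30155253. The 85 bases between the annotated genes are shown because both genes run away from them; the plus strand, from RefSeq's GRCm38.p6 sequence, is printed with each GGGCGG in capitals.
Hadha-Hadhb gap: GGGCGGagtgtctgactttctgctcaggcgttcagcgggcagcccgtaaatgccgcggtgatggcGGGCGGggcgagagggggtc
GGGCGG was searched on both strands of the 250 bases before each RefSeq start site. It was present for 18 of the 30 members with such a sequence, and for 35.4% of all 27025 genes.

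Hadh, Acaa2, Eci1 and Decr1 code for later or auxiliary steps, the dehydrogenation of hydroxyacyl-CoA, the thiolase step and the handling of double bonds. Eci1, an isomerase for unsaturated chains, had the largest fall of the route, to 60.9 ± 14.2 FPKM in BDL_KO, against 170.5 ± 24.7 FPKM in Sham_KO (-1.50 ± 0.15), and to 52.4 ± 7.69 FPKM in BDL_Wt, against 125 ± 10.7 FPKM in Sham_Wt (-1.26 ± 0.15). Decr1, a reductase for unsaturated chains, changed by -1.21 ± 0.14 in knockout and -0.86 ± 0.14 in wild-type livers. Acaa2, the mitochondrial thiolase, changed by -0.86 ± 0.16 and -1.13 ± 0.16. Hadh had a smaller fall in knockout livers (-0.56 ± 0.17), where its groups overlapped and the call was lost without any 1 of 2 libraries, and changed by -0.76 ± 0.17 in wild-type livers. The electron transfer genes Etfa, Etfb and Etfdh, which pass electrons from the dehydrogenases to the respiratory chain, fell in both genotypes by 0.65 to 1.04 in knockout and 0.81 to 1.19 in wild-type livers on the log2 scale.

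Acot2, a mitochondrial thioesterase that releases free fatty acid from acyl-CoA, was the 1 gene of the route called in neither genotype. It had 1.85, 4.69, 1.30, 5.19 and 5.69 FPKM in BDL_KO, against 6.69, 17.3, 4.05, 9.69 and 5.50 FPKM in Sham_KO. It had 5.84, 4.67, 7.49, 11.3 and 10.4 FPKM in BDL_Wt, against 2.38, 3.11, 6.11, 7.75 and 4.91 FPKM in Sham_Wt. All these groups overlapped, and the changes of -1.10 ± 0.40 in knockout (limma adjusted p = 0.0513) and 0.69 ± 0.40 in wild-type livers (adjusted p = 0.198) missed the threshold. The 2 lowest BDL_KO values were those of BDL_KO_2359 and BDL_KO_2248, and without them the knockout change was -0.52 (adjusted p = 0.332). With library type in the fit it was -1.20 and was called (adjusted p = 0.0295), 1 of 6 among 34 alternative settings that called it.

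In the peroxisomal route 7 of 11 genes were lower in each genotype, with medians of -0.91 in knockout and -0.92 in wild-type livers. Ehhadh, the bifunctional enzyme that carries out the middle steps on straight chains, had 98.2, 78.4, 33.9, 87.5 and 108 FPKM in BDL_KO, against 162, 327, 149, 299.6 and 197 FPKM in Sham_KO. It had 41.8, 61.2, 51.3, 67.2 and 110.1 FPKM in BDL_Wt, against 98.6, 116, 196, 226 and 129.8 FPKM in Sham_Wt. Every BDL_KO library was below every Sham_KO library (-1.50 ± 0.33, limma adjusted p = 0.00302), and in wild type only the highest ligated library reached the sham range (-1.21 ± 0.33, adjusted p = 0.00764).

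Acaa1a and Acaa1b code for a pair of closely related peroxisomal thiolases, and of the 2 only Acaa1b was called. Acaa1b had 153, 222, 5.28, 163 and 411 FPKM in BDL_KO, against 1052, 987, 648, 740.2 and 412 FPKM in Sham_KO. It had 57.8, 103, 84.4, 67.5 and 183 FPKM in BDL_Wt, against 608, 556, 546, 609 and 332 FPKM in Sham_Wt. Neither pair of groups overlapped, although the highest BDL_KO library, at 411 FPKM, was close to the lowest Sham_KO library, at 412 FPKM. The change was -2.78 ± 0.76 in knockout (limma adjusted p = 0.0117) and -2.50 ± 0.76 in wild-type livers (adjusted p = 0.0141). BDL_KO_2248 was far below the rest, and without it and BDL_KO_2359 the knockout change was -1.56 (adjusted p = 0.00367).

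Acaa1a averaged 44.9 ± 9.54 FPKM in BDL_KO and 56.0 ± 10.8 FPKM in Sham_KO, and 47.3 ± 9.04 FPKM in BDL_Wt and 58.1 ± 7.06 FPKM in Sham_Wt (SD, n = 5 each). Its changes of -0.32 ± 0.16 and -0.31 ± 0.16 were not called. The 2 genes share sequence: 28.5% of the 75-base windows of the Acaa1b transcript and 27.3% of those of Acaa1a also occur in other genes, so their split is uncertain. Their sum averaged 236 ± 148 FPKM in BDL_KO, 146 ± 46.8 FPKM in BDL_Wt, 824 ± 270.3 FPKM in Sham_KO and 588 ± 118 FPKM in Sham_Wt.

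Of the other peroxisomal genes, Hsd17b4, the bifunctional enzyme for branched chains, changed by -0.82 ± 0.12 in knockout and -0.71 ± 0.12 in wild-type livers. Eci2 and Decr2, isomerase and reductase for unsaturated chains, changed by -1.34 ± 0.16 and -0.86 ± 0.16 in knockout and -1.15 ± 0.16 and -0.92 ± 0.16 in wild-type livers, all called. Acot8, a peroxisomal thioesterase, and Pex11a, which helps peroxisomes divide, also fell in both genotypes. Pex11a averaged 12.9 ± 1.60 FPKM in BDL_KO, 15.4 ± 5.55 FPKM in BDL_Wt, 39.7 ± 7.11 FPKM in Sham_KO and 32.6 ± 7.34 FPKM in Sham_Wt. Scp2, a carrier and thiolase for sterols and branched chains, had the highest Sham_Wt mean of all 37 genes per length, 803 FPKM, and its changes of -0.85 ± 0.35 and -0.77 ± 0.35 were not called.

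The omega route is represented by Cyp4a10 and Cyp4a14, fatty acid omega-hydroxylases of mouse liver that PPARalpha induces. Cyp4a10 had 82.6, 12.3, 16.5, 17.0 and 32.6 FPKM in BDL_KO, against 349.6, 495, 317, 663 and 624 FPKM in Sham_KO. It had 15.4, 17.3, 13.9, 61.9 and 47.5 FPKM in BDL_Wt, against 43.6, 120.5, 289, 402 and 195 FPKM in Sham_Wt. The knockout groups were far apart (-4.21 ± 0.58, limma adjusted p = 6.83e-05). The wild-type groups overlapped through 1 low sham library and the 2 highest ligated ones (-2.66 ± 0.58, adjusted p = 0.00154).

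Cyp4a14 had 178, 25.6, 70.6, 47.6 and 60.9 FPKM in BDL_KO, against 392, 622, 302, 749 and 827 FPKM in Sham_KO. It had 19.2, 33.5, 16.7, 193 and 129 FPKM in BDL_Wt, against 35.5, 170.4, 434, 594 and 314 FPKM in Sham_Wt. The pattern was that of Cyp4a10: no overlap in knockout (-3.10 ± 0.75, limma adjusted p = 0.00557) and overlap in wild type (-2.15 ± 0.75, adjusted p = 0.0301). The wild-type call of Cyp4a14 was lost without any 1 of 6 libraries, and also as TPM (-1.84, adjusted p = 0.0542). The genes are neighbours on chromosome 4, 22.1 kb apart and on opposite strands. Of the 75-base windows of the Cyp4a10 transcript 19.1% also occur in other genes, most of them in Cyp4a32, and none of those of Cyp4a14 do. Summed over Cyp4a10, Cyp4a14, Cyp4a31 and Cyp4a32, the level averaged 120.3 ± 91.9 FPKM in BDL_KO, 123 ± 105 FPKM in BDL_Wt, 1105 ± 368 FPKM in Sham_KO and 548 ± 363 FPKM in Sham_Wt.

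**Figure D3:**
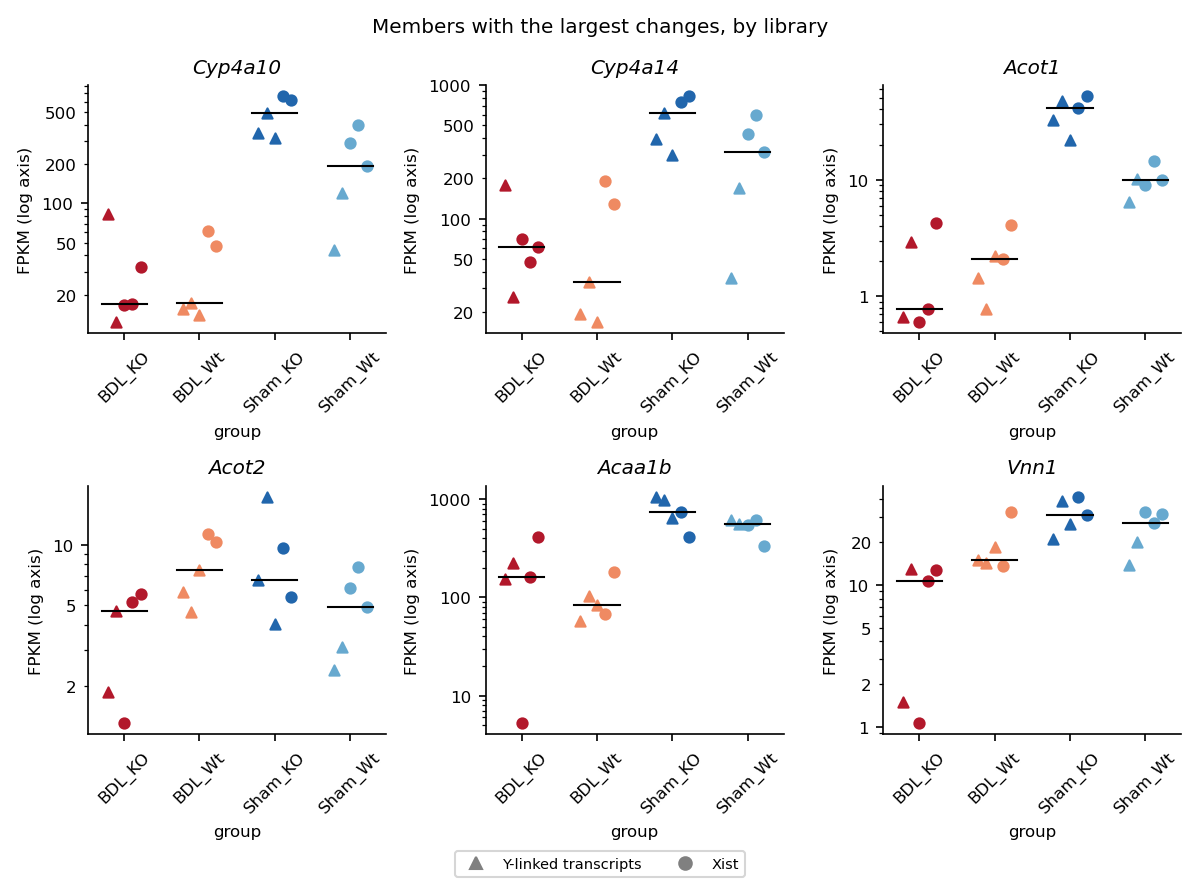
Each point is the FPKM of 1 library on a log axis, triangles for libraries with Y-linked transcripts and circles for those with Xist, and the line is the group median. Acot1 has its highest values in Sham_KO, from 21.8 to 51.9 FPKM, and Vnn1 and Acaa1b have their lowest values in BDL_KO, at 1.06 and 5.28 FPKM.

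Both ketone body genes fell. Bdh1, which interconverts acetoacetate and hydroxybutyrate, had 6.57, 32.1, 2.93, 20.3 and 33.9 FPKM in BDL_KO, against 62.8, 52.5, 48.3, 56.1 and 49.3 FPKM in Sham_KO. It had 14.9, 18.9, 21.0, 9.15 and 36.0 FPKM in BDL_Wt, against 55.5, 56.0, 61.4, 62.4 and 75.8 FPKM in Sham_Wt. Every ligated library was below every sham library in each genotype (-1.93 ± 0.48, limma adjusted p = 0.00697, in knockout and -1.74 ± 0.48, adjusted p = 0.00833, in wild type). The spread within the ligated groups was wide. The 2 lowest values were again those of BDL_KO_2359 and BDL_KO_2248, without which the knockout change was -0.92 (adjusted p = 0.0183). Acat1, the mitochondrial thiolase that makes and breaks acetoacetyl-CoA, averaged 53.3 ± 14.2 FPKM in BDL_KO and 124 ± 8.33 FPKM in Sham_KO (-1.25 ± 0.15). In wild type it averaged 39.1 ± 3.99 FPKM in BDL_Wt and 108 ± 14.7 FPKM in Sham_Wt (-1.45 ± 0.15).

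Acsl1, the main liver synthetase that activates long chains to acyl-CoA, had 48.4, 23.6, 31.0, 26.3 and 44.5 FPKM in BDL_KO, against 145, 207, 149.9, 102 and 114 FPKM in Sham_KO. It had 15.9, 22.2, 16.1, 22.6 and 21.2 FPKM in BDL_Wt, against 101, 112, 86.4, 108 and 79.5 FPKM in Sham_Wt. It fell well clear of the sham range in both genotypes (-2.04 ± 0.21, limma adjusted p = 2.96e-06, in knockout and -2.29 ± 0.21, adjusted p = 3.89e-07, in wild type).

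Acot1, a cytosolic thioesterase, had the largest change of all members with ligation in knockout livers, next to Cyp4a10, whose change was the larger of these 2 with library type in the fit (-4.41 against -4.38) and without BDL_KO_2359 and BDL_KO_2248 (-4.59 against -3.78). It had 0.664, 2.93, 0.600, 0.782 and 4.29 FPKM in BDL_KO, against 32.8, 47.7, 21.8, 40.9 and 51.9 FPKM in Sham_KO. It had 1.44, 0.777, 2.19, 2.07 and 4.11 FPKM in BDL_Wt, against 6.42, 10.0, 9.03, 14.5 and 9.95 FPKM in Sham_Wt. The ligated groups lay at a similar low level, and the Sham_KO libraries were all above the Sham_Wt libraries. The change with ligation was -4.29 ± 0.40 in knockout (limma adjusted p = 1.26e-06) and -2.09 ± 0.40 in wild-type livers (adjusted p = 0.000522).

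Acot1 is 1 of 4 thioesterase members close together on the plus strand of chromosome 12, in the order Acot2, Acot1, Acot4 and Acot3. Only the 37 members were searched for neighbours, so other genes of this cluster are not counted. These 4 members are 15.6, 20.0 and 3.54 kb apart (GRCm38, GENCODE M21). They code for enzymes of different compartments, mitochondrion, cytosol and, for the last 2, peroxisome. Their values differed among the 4. With ligation in knockout livers Acot2 changed by -1.10 ± 0.40, Acot1 by -4.29 ± 0.40, Acot4 by -0.83 ± 0.39 and Acot3 by -1.72 ± 0.92. Only Acot1 was called. The 250 bases before each RefSeq start site (GRCm38.p6, plus strand) are shown because these neighbours differ in their values. Capitals mark CCAAT on either strand and, at the end of the Acot4 sequence, the 1 match of a loose direct repeat.
Acot2, chr12:83987611-83987860: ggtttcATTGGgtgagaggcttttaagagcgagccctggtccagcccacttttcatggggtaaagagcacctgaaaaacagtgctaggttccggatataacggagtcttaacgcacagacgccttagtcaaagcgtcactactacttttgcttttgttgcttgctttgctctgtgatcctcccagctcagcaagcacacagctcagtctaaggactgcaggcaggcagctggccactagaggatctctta
Acot1, chr12:84009252-84009501: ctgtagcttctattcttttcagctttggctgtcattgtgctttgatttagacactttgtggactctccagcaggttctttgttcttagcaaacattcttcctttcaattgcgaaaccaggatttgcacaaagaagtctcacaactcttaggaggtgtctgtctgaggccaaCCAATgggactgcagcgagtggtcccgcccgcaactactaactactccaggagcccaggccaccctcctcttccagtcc
Acot4, chr12:84038129-84038378: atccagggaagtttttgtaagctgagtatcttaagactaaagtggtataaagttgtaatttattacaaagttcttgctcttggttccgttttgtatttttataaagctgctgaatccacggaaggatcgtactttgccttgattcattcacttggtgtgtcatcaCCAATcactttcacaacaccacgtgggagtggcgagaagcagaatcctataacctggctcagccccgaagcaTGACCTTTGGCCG
Acot3, chr12:84051894-84052143: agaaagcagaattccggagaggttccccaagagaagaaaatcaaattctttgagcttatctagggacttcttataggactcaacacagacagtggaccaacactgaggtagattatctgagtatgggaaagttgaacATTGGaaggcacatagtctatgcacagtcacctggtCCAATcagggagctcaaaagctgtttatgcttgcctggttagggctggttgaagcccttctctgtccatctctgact
The direct repeat AGGTCANAGGTCA, which is the kind of site PPARalpha binds with RXR, and the looser NGGNCANAGGTCA were searched on both strands of these windows for the 30 members in the table. The first was found for 0 of 30 members and for 0.0407% of all 27025 genes. The second was found for 1 of 30, Acot4, whose match begins 13 bases before the start site, and for 0.204% of all genes. It contains the plain half-site AGGTCA, found for 5 of 30 members and 15.8% of all genes. CCAAT was found for 16 of 30 and 37.5%. Windows of this length hold little of the regulatory sequence of a gene. Of the 75-base windows of the Acot1 transcript 26.4% also occur in other genes, most of them in Acot2, and 21.2% of those of Acot2, so the split of reads between them is uncertain. Their sum averaged 5.60 ± 3.41 FPKM in BDL_KO, 10.0 ± 3.86 FPKM in BDL_Wt, 47.7 ± 15.4 FPKM in Sham_KO and 14.8 ± 4.88 FPKM in Sham_Wt. For Acot3 16.5% of the windows also occur in other genes, most in Gm49366.

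Of the 3 other PPARalpha targets only Vnn1 was called, in knockout livers. Vnn1, a pantetheinase, had 1.49, 12.9, 1.06, 10.7 and 12.8 FPKM in BDL_KO, against 20.9, 38.7, 26.8, 41.6 and 31.0 FPKM in Sham_KO. It had 15.0, 14.3, 18.6, 13.6 and 32.8 FPKM in BDL_Wt, against 13.9, 20.1, 32.8, 27.2 and 31.8 FPKM in Sham_Wt. It fell in knockout livers with no overlap (-2.45 ± 0.52, limma adjusted p = 0.0023) and changed by -0.42 ± 0.52 in wild-type livers (adjusted p = 0.567). BDL_KO_2359 and BDL_KO_2248 held the 2 lowest values, and without them the knockout change was -1.32 (adjusted p = 0.00263).

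Pdk4, a kinase that turns pyruvate dehydrogenase off and so spares glucose, had 3.21, 9.51, 2.51, 5.08 and 5.05 FPKM in BDL_KO, against 7.40, 22.7, 1.73, 4.92 and 2.91 FPKM in Sham_KO. It had 8.40, 4.95, 13.0, 6.58 and 18.3 FPKM in BDL_Wt, against 5.64, 3.09, 6.16, 8.33 and 1.41 FPKM in Sham_Wt. The groups overlapped, and the changes of -0.22 ± 0.54 and 1.03 ± 0.54 did not pass (limma adjusted p = 0.8 and 0.149). Fgf21, a hormone that liver secretes in fasting, was the lowest member in Sham_Wt per length. It had 6.45, 1.08, 1.93, 1.84 and 1.34 FPKM in BDL_KO, against 3.03, 6.50, 1.83, 1.34 and 1.11 FPKM in Sham_KO. It had 1.42, 1.16, 2.21, 2.91 and 14.6 FPKM in BDL_Wt, against 0.137, 1.41, 2.01, 1.57 and 2.57 FPKM in Sham_Wt. A single BDL_Wt library stood high, and the changes of -0.11 ± 0.57 and 0.90 ± 0.57 did not pass (adjusted p = 0.909 and 0.237).

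Compared as routes, the 2 omega members had the deepest changes and the widest spread. The mitochondrial and peroxisomal members had close median changes but different mean scores. Of 8 other omega genes 6 were lower in knockout and 4 in wild-type livers (medians -1.27 and -0.84, against -3.66 and -2.40 for the members). Of 12 other mitochondrial genes 4 and 10 were lower (medians -0.43 and -0.94). Of 16 other peroxisomal genes 7 and 8 were lower and 1 higher in each (medians -0.59 and -0.86). Of all genes 12.9% and 17.5% were lower. A score was taken per library as the mean over a route's genes of log2(FPKM + 0.5) minus the Sham_Wt mean. The mitochondrial score was -0.640 ± 0.221 in BDL_KO, -0.733 ± 0.146 in BDL_Wt and 0.252 ± 0.130 in Sham_KO, with an SD of 0.0700 in Sham_Wt (SD, n = 5 each). The peroxisomal score was -0.885 ± 0.372 in BDL_KO, -1.03 ± 0.293 in BDL_Wt and 0.343 ± 0.232 in Sham_KO, with an SD of 0.286 in Sham_Wt. For the omega route it was -2.25 ± 1.02 in BDL_KO, -2.40 ± 1.29 in BDL_Wt and 1.41 ± 0.549 in Sham_KO, with an SD of 1.42 in Sham_Wt. The peroxisomal score was below the mitochondrial one in 10 of 10 ligated libraries, by 0.07 to 0.56, and in 2 of 5 Sham_KO and 3 of 5 Sham_Wt libraries. Each gene counts alike in a score. Acaa1b (-2.78 in knockout, -2.50 in wild type) and Acot3 (-1.72 and -1.45, not called) had the deepest peroxisomal changes and Acaa1a (-0.32 and -0.31) the smallest. In the mitochondrial route Acot2 changed by -1.10 and 0.69. The part of single genes in the gap between the scores was not tested. All ligated libraries were below all sham libraries in the mitochondrial and peroxisomal scores. In the omega score Sham_Wt_2223, at -2.25, lay among the ligated libraries. In BDL_Wt this score ran from -3.59 to -2.95 with Y-linked transcripts and from -1.26 to -0.79 with Xist. In Sham_Wt it ran from -2.25 to -0.40 and from 0.39 to 1.36, and in Sham_KO from 0.71 to 1.55 and from 1.89 to 1.92. In BDL_KO the types overlapped, with -3.38 to -0.64 and -2.71 to -2.07. These scores are a description, since the routes hold 17, 11 and 2 genes and share their libraries.

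**Figure D4:**
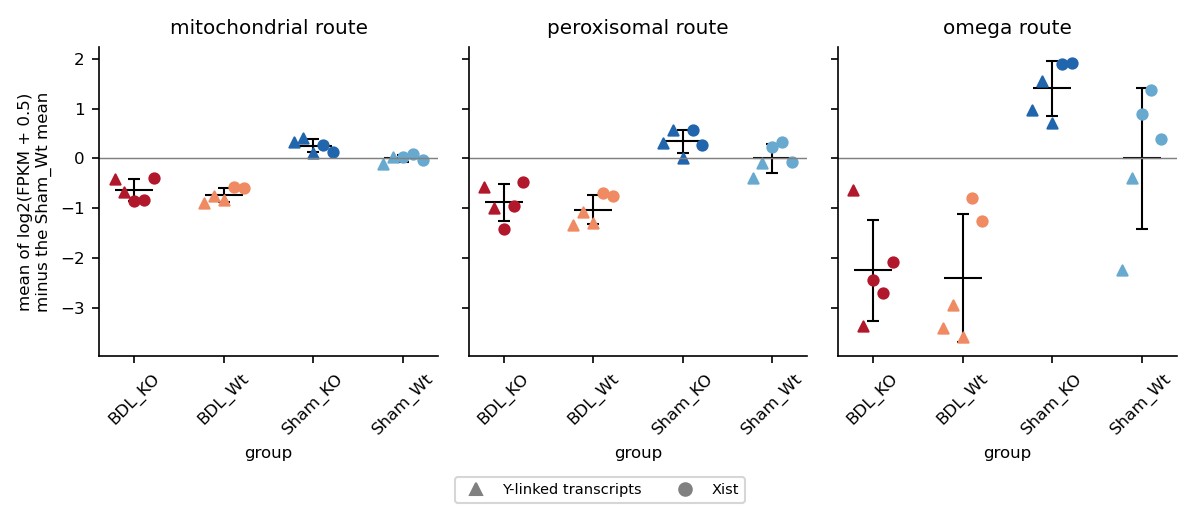
Points are the route scores of single libraries, as mean log2(FPKM + 0.5) minus the Sham_Wt mean; lines are group means and bars SD. The omega panel, a mean of 2 genes, spreads over more than the other panels, and its lowest sham library lies at -2.25.

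Without bile duct ligation few of these genes passed the test between knockout and wild-type livers. Of 37 members 2, Acot1 and Cpt2, were higher in Sham_KO than in Sham_Wt and 0 were lower, where 1.31% of all genes were higher and 1.66% lower. The median difference of the members was 0.34 on the log2 scale, beside 0.01 over all genes. Above 0 were 33 of 37 differences, beside 7336 of 14059 over all genes. Acot1 was higher by 1.89 ± 0.40 (limma adjusted p = 0.0157), without overlap. Cpt2 had 103, 101, 97.5, 104 and 102 FPKM in Sham_KO, against 68.9, 74.0, 75.5, 73.8 and 58.4 FPKM in Sham_Wt. It too showed no overlap (0.54 ± 0.14), but its adjusted p of 0.0496 passed narrowly and the call was lost in 15 of 20 fits without 1 library.

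By route the median differences were 0.22 for the mitochondrial, 0.39 for the peroxisomal and 1.41 for the omega genes. Cyp4a10 differed by 1.51 ± 0.58 (limma adjusted p = 0.177) and Cyp4a14 by 1.30 ± 0.75 (adjusted p = 0.384), with overlapping groups. The omega median was 0.84 without Sham_Wt_2223. With the values rescaled to TPM, which moved the median of all genes by -0.13, the mitochondrial median was 0.07 and 0 members were higher, where 0.142% of all genes were. Decr1 and Acadm also had all Sham_KO libraries above all Sham_Wt libraries and were not called (0.37 ± 0.14 and 0.22 ± 0.12, adjusted p = 0.175 and 0.357). With BDL_KO_2359 and BDL_KO_2248 out of the fit, 4 members passed, Acot1, Cpt2, Eci1 and Hsd17b4, where 3.12% of all genes were higher.

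After ligation 3 members, Acsl1, Etfb and Acaa2, were higher in BDL_KO than in BDL_Wt and 1, Vnn1, was lower, where 3.46% of all genes were higher and 5.37% lower. The median difference over the members was 0.12 on the log2 scale. Acsl1 differed by 0.77 ± 0.21 (limma adjusted p = 0.0264), and all 5 BDL_KO libraries were above all 5 BDL_Wt libraries. Acaa2 had 517, 351, 368, 319 and 463 FPKM in BDL_KO, against 229.9, 294, 213, 299 and 262 FPKM in BDL_Wt, again with no overlap (0.62 ± 0.16, adjusted p = 0.0213).

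Etfb had 24.1, 15.5, 15.1, 12.9 and 19.9 FPKM in BDL_KO, against 10.9, 12.3, 9.43, 11.1 and 10.6 FPKM in BDL_Wt, also without overlap (0.63 ± 0.17, limma adjusted p = 0.0237). Of the 75-base windows of its transcript 66.3% also occur in other genes, most in Gm45233, so its level is uncertain. Vnn1 was lower in all BDL_KO libraries than in any BDL_Wt library (-1.67 ± 0.52, adjusted p = 0.0496).

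None of these 4 calls held under every setting. Without BDL_KO_2359 and BDL_KO_2248 the differences were 0.63 for Acsl1, 0.53 for Acaa2, 0.53 for Etfb and -0.54 for Vnn1, with limma adjusted p of 0.109, 0.0736, 0.0815 and 0.319. Then 1 member, Acaa1b, was higher in BDL_KO (1.43 ± 0.37, adjusted p = 0.0311) and 0 were lower, where 3.24% of all genes were higher and 3.36% lower. As TPM, which moved the median of all genes by -0.27 in this comparison, 0 members were higher and 2 lower, where 0.797% of all genes were higher and 11% lower, and the median of the mitochondrial route turned to -0.15. The share of calls that were higher over all genes was 6.73% as TPM and 39.2% as deposited. In the other comparisons this share was 9.52% as TPM and 44.0% as deposited between the sham groups, 75.9% and 48.8% for ligation in knockout livers, and 82.0% and 50.8% for ligation in wild-type livers, where the median of all genes moved by 0.16 and 0.29.

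The difference between the ligation responses of the genotypes was tested as the interaction. Of 37 members 0 passed in limma, where 0.22% of all genes were lower and 0.156% higher, and voom on recovered fragments also called 0. The 3 members with the largest interactions in size were Acot1, Vnn1 and Acot2. Their interactions were -2.21 ± 0.56 for Acot1 (limma adjusted p = 0.123), -2.03 ± 0.73 for Vnn1 (adjusted p = 0.229) and -1.79 ± 0.57 for Acot2 (adjusted p = 0.187). Without BDL_KO_2359 and BDL_KO_2248 they were -1.69, -0.90 and -1.21 (limma adjusted p = 0.16, 0.305 and 0.302). Of the 37 values 27 were below 0, with a median of -0.22. Over all 14059 genes 7093 were below 0, with a median of -0.0028.

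Some members differed between the library types. In a fit with library type as a covariate, Scp2 was higher in libraries with Y-linked transcripts than in those with Xist by 0.97 ± 0.13 on the log2 scale (limma adjusted p = 0.000193). Acot3 and Acot4 were lower in them, by -2.35 ± 0.39 and -0.90 ± 0.20 (adjusted p = 0.00255 and 0.0201). These were 3 of the 37 members, and 270 of the 14059 genes tested were called. The omega genes were also lower in libraries with Y-linked transcripts but were not called. Cyp4a14 differed by -1.50 ± 0.42 and Cyp4a10 by -0.97 ± 0.36 (limma adjusted p = 0.0901 and 0.247). After sham surgery Scp2 ran from 1216 to 1428 FPKM in the 5 libraries with Y-linked transcripts and from 444 to 564 FPKM in the 5 with Xist. After ligation the ranges met, with 442 to 709 FPKM and 311 to 529 FPKM. Of the 75-base windows of the Scp2 transcript 36.7% also occur in other genes, most in Scp2-ps2.

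Acot3 in sham libraries ran from 0.209 to 6.94 FPKM with Y-linked transcripts and from 10.0 to 35.5 FPKM with Xist. Acot4 ran from 4.71 to 19.1 FPKM and from 12.4 to 26.9 FPKM in the same libraries. Of the 75-base windows of the Acot3 transcript 16.5% also occur in other genes, most in Gm49366. With library type in the fit, ligation lowered Scp2 in knockout (-0.65, limma adjusted p = 0.0119) and wild-type livers (-0.96, adjusted p = 0.000395), and 34 members were lower in knockout and 28 in wild-type livers, where 12.5% and 18.4% of all genes were lower. Within libraries with Y-linked transcripts 22 members were lower in knockout and 25 in wild-type livers, where 3.43% and 10% of all genes were lower. Within libraries with Xist the counts were 20 and 12, where 2.13% and 3.17% of all genes were lower. In both comparisons of genotype 0 members were called within either type. Of all genes 2.19% were called between the ligated groups and 0% between the sham groups with Y-linked transcripts, and 0.0569% and 0.0498% with Xist. The medians of the members after ligation, knockout against wild type, were 0.35 with Y-linked transcripts and -0.20 with Xist. BDL_KO_2359 is 1 of the 2 BDL_KO libraries with Y-linked transcripts, and BDL_KO_2248 is 1 of the 3 with Xist.

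**Figure D5:**
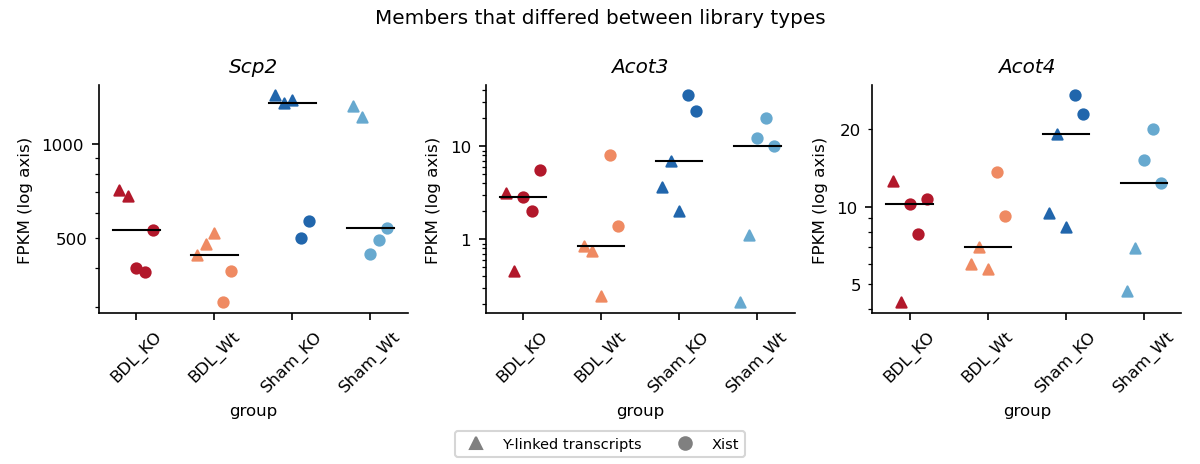
FPKM of single libraries on a log axis, by group, with triangles for libraries with Y-linked transcripts, circles for those with Xist and lines for group medians. Scp2 in sham libraries splits into 1216 to 1428 FPKM and 444 to 564 FPKM by type, while Acot3 has its low sham values, from 0.209 FPKM, in libraries with Y-linked transcripts.

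Of 70 other genes of the same pathways 67 passed the filter. In knockout livers 29 were lower after ligation and 7 higher, where 12.9% and 12.3% of all genes were, and in wild-type livers 33 and 7, where 17.5% and 18.1% were. Ppara itself, the receptor gene, averaged 10.6 ± 1.99 FPKM in BDL_KO and 20.8 ± 7.43 FPKM in Sham_KO, and 9.29 ± 1.67 FPKM in BDL_Wt and 20.2 ± 3.92 FPKM in Sham_Wt (SD, n = 5 each). It fell in both genotypes (-0.89 ± 0.20 and -1.07 ± 0.20). Ppargc1a, a coactivator of PPARalpha, rose in knockout livers (0.64 ± 0.17, limma adjusted p = 0.0103) and changed by -0.06 ± 0.17 in wild-type livers (adjusted p = 0.803).

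Angptl4, an inhibitor of lipoprotein lipase, and Plin2, a lipid droplet coat, are PPARalpha targets. In knockout livers they fell by 1.82 and 1.78 on the log2 scale. In wild-type livers their changes were -0.24 ± 0.37 and -0.69 ± 0.34 and were not called, and their interactions did not pass (limma adjusted p = 0.204 and 0.341). The largest called changes in both genotypes were those of Fabp1, the liver fatty acid carrier, G0s2, an inhibitor of lipolysis, and Nudt7, a peroxisomal CoA hydrolase: -4.05 ± 0.69, -4.35 ± 0.56 and -2.05 ± 0.54 in knockout and -3.87 ± 0.69, -2.58 ± 0.56 and -2.52 ± 0.54 in wild-type livers.

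Between the sham groups 3 of these 67 genes were higher in the knockout, where 1.31% of all genes were. They were Plin5 (1.28 ± 0.25), which ties droplets to mitochondria, Fitm2 (0.56 ± 0.15), which acts in droplet formation, and Creb3l3 (0.42 ± 0.11), a liver transcription factor that works with PPARalpha. After ligation 8 were higher in the knockout and 2 lower, where 3.46% and 5.37% of all genes were. The largest were Acacb (1.82 ± 0.25), whose product makes the malonyl-CoA that holds Cpt1a back, Hacl1 (1.39 ± 0.34), a peroxisomal lyase of alpha-oxidation, and Acot9 (-1.05 ± 0.25), a mitochondrial thioesterase. Acacb had 7.62 to 24.6 FPKM in BDL_KO and 3.35 to 5.61 FPKM in BDL_Wt, without overlap. Without BDL_KO_2359 and BDL_KO_2248 the calls of Hacl1 (0.89, limma adjusted p = 0.122) and Acot9 (-0.56, adjusted p = 0.0781) were lost and that of Acacb (1.98) was not. Acsl3, a synthetase of lipid droplets and endoplasmic reticulum, was the 1 gene that passed the interaction; it rose more in knockout (1.67 ± 0.17) than in wild-type livers (0.47 ± 0.17; interaction 1.20 ± 0.24, limma adjusted p = 0.0342). Without BDL_KO_2359 and BDL_KO_2248, 5 of the 67 passed it, 4 higher and 1 lower, where 0.804% of all genes were higher and 0.462% lower.

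Markers of other cells moved with ligation in these whole livers, where fewer cells of a type and less RNA per cell cannot be told apart. Of 12 hepatocyte markers 4 were lower in knockout and 5 in wild-type livers, with medians of -0.08 and -0.55 beside -0.91 and -0.84 for the members. The summed hepatocyte markers were 60056 FPKM in BDL_KO_2359, 75992 FPKM in BDL_KO_2248 and 37933 to 41007 FPKM in the other 3 BDL_KO libraries. They ranged from 28333 to 39015 in BDL_Wt, from 59964 to 79713 in Sham_KO and from 56058 to 75241 in Sham_Wt. Higher in BDL_KO than in BDL_Wt were 4 of the 12 (median 0.50), where 3.46% of all genes were. Acsl1, Etfb and Acaa2 had the same direction and Vnn1 the opposite one. Of the 37 members 23 were above 0 and 14 below 0 in this comparison (median 0.12). Without BDL_KO_2359 and BDL_KO_2248, 6 of the 12 were lower with ligation in knockout livers (median -0.58), and 1 was higher and 1 lower in BDL_KO than in BDL_Wt (median 0.20). Of 7 tested cholangiocyte markers 5 were higher after ligation in knockout and 7 in wild-type livers, and of 10 macrophage and monocyte markers 6 and 8. Without those 2 libraries 5 of 7 and 10 of 10 were higher in knockout livers. The summed macrophage and monocyte markers were 237 FPKM in BDL_KO_2359, 120.0 FPKM in BDL_KO_2248 and 468 to 669 FPKM in the other 3 BDL_KO libraries. They ranged from 545 to 696 in BDL_Wt, 159 to 241 in Sham_KO and 202 to 339 in Sham_Wt. Of 7 sinusoidal endothelial markers 4 were lower in knockout and 5 in wild-type livers. Adipoq and Plin1 of adipocytes and Prss1 of pancreas averaged under 0.05 FPKM over all libraries. With Cela1 of pancreas and the globin genes Hba-a1 and Hbb-bt, this list of 6 summed to 63.5 to 557 FPKM in BDL_KO, 29.1 to 158 in BDL_Wt, 61.7 to 149 in Sham_KO and 42.6 to 60.1 in Sham_Wt, and of its 3 tested genes Cela1 was lower after ligation in both genotypes (-1.38 ± 0.18 and -1.74 ± 0.18). The part of these cell populations in the changes of the members was not tested.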

How the data were processed

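FPKM values, as the authors deposited them, were read from 1 table of 54532 genes with a column for each library. The submitters' processing notes name, without role or order, HISAT2 2.0.5, fastp, featureCounts 1.5.0-p3, CASAVA 1.8 and DESeq2 1.20.0, and the builds mm10 and GRCm38; the release of the gene annotation is not given in the sources used. RNA extraction used TRIzol, per the labels. Multiplied by GENCODE M21 exonic length, 97.8 to 98.2% of low values were whole multiples of 1 step per library (tolerance 0.02), which gave fragments per gene and 14.9 to 20.9 M fragments per library. These were used only in an added count-based fit.

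The 14059 genes that reached 0.5 FPKM in 5 or more of the 20 libraries were tested on log2(FPKM + 0.5), which understates changes of low genes. The test was limma 3.58.1 in R 4.3.3, in 1 model with a mean per group, trend and robust moderation, checked on simulated data, with Benjamini-Hochberg adjustment over all genes and a threshold of 0.05. Tmem173 was compared by exact permutation. Groups came from sample titles, which also name the libraries.

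The members, routes, pathway and marker lists were chosen with earlier results of these data known. All 37 members are accounted for. Values of every library are given for the 3 members with the largest change per comparison, for Cpt1a, Acadm, Ehhadh, Cyp4a10, Cyp4a14, Bdh1 and Fgf21, and, chosen after their values were seen, for Cpt2, Acaa2 and Etfb in single comparisons. Of other pathway genes the text names Ppara, Ppargc1a, Angptl4, Plin2 and the 3 largest called per comparison; some genes are not reported here. Alternatives covered the pseudocount (0.1 and 1), the filter (none and 1 FPKM), TPM, quantile normalization, limma voom on the fragments with trimmed-mean scaling, array weights, moderation without robust estimation, fits of only the groups compared, a term for library type, fits within 1 library type, and libraries left out. Promoter sequences are RefSeq's for GRCm38.p6, with 30 of 37 members matched by symbol. Windows of 75 bases stand in for reads, whose length the sources used here do not give.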

Additional observations from a re-analysis of the deposited data

Results flagged for a closer look

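Among 148 groups of 5 libraries (37 genes in 4 groups), 5 had a highest or lowest library whose gap to the nearest of the others passed Dixon's 95% limit, 3.38% of those examined. Chance alone flags about 1 group in 20. In BDL_KO_2248, Acaa1b was lowest of its group at 5.28 FPKM, with the nearest library at 152.9 FPKM, and Ehhadh was lowest at 33.9 FPKM, with the nearest at 78.4 FPKM. In Sham_KO_2352, Acadm was highest at 102.5 FPKM, against 94.6 FPKM in the nearest library. In Sham_Wt_2229, Acaa1b was lowest at 332 FPKM, against 546 FPKM, and in Sham_Wt_2223 Eci2 was lowest at 25.1 FPKM, against 36.7 FPKM.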

How the results depend on the processing

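The count of members lower with ligation in knockout livers stayed within 1.5 times its value of 30 under every alternative. It was 27 as TPM, 22 with only Y-linked libraries and 20 with only Xist libraries, where 4.83%, 3.43% and 2.13% of all genes were lower. In wild-type livers it was 27, and 12 with only Xist libraries. Xist marked 3 Sham_Wt and 2 BDL_Wt libraries, and Y-linked transcripts marked 2 and 3. Counts of members higher in Sham_KO than in Sham_Wt, 2 as reported, were 1 with a pseudocount of 0.1, without a filter, with quantile normalization, with voom and with library type as a covariate, 0 as TPM and within either library type, 5 with array weights, and 4 with only the groups compared or without BDL_KO_2359 and BDL_KO_2248. Members lower in BDL_KO than in BDL_Wt, 1 as reported, were 2 as TPM and with quantile normalization, and 0 with a pseudocount of 0.1, without a filter, with voom, with array weights, with only the groups compared, within either library type and without those 2 libraries. Members higher in BDL_KO, 3 as reported, were 0 as TPM, with only the groups compared and within either library type, and 1 without those 2 libraries. Within library types the groups hold 2 or 3 libraries. As TPM the mitochondrial median was -0.52 and the peroxisomal -0.60 for ligation in wild-type livers, and the mitochondrial was 0.075 between the sham groups and turned to -0.15 between the ligated ones; TPM moved the median of all genes in these comparisons by 0.29, -0.13 and -0.27. The cause of the other shifts was not tested.

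Leaving out each library in turn gave 26 to 27 members lower in wild-type and 28 to 31 in knockout livers with ligation. It gave 1 to 2 higher in Sham_KO and, in BDL_KO against BDL_Wt, 0 to 1 lower and 0 to 5 higher. Shares of all genes called in these fits are not given here. The omega median between the sham groups ranged from 0.84, without Sham_Wt_2223, to 1.75, and that between the ligated groups from -0.25, without BDL_KO_2359, to 0.56. The call of Vnn1 in BDL_KO against BDL_Wt was lost in 17 of 20 such fits, and those of Acaa2, Acsl1 and Etfb in 4 each. Over all alternatives the adjusted p ranged from 0.00264 to 0.290 for Acot1 and from 0.00624 to 0.494 for Cpt2 between the sham groups. Between the ligated groups it ranged from 0.0192 to 0.596 for Vnn1, from 0.0101 to 0.515 for Acsl1, from 0.00719 to 0.617 for Etfb and from 0.00838 to 0.611 for Acaa2. No called member changed its direction under any alternative run. No paired analysis was possible because each library has its own number and no number is shared between groups. Without the filter 29346 genes were tested, against 14059 as reported; what depth allows below 0.5 FPKM was not tested.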
